A study of Homo sapiens with 6 samples.

Results

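Bruceantin (BCT), a plant-derived quassinoid, was given to 22RV1 cells, and RNA-seq measured what happened to 10 genes of JAK-STAT signaling and of its SOCS feedback arm. The set comprised the receptor chains IL6R and IL6ST, the kinase JAK1, the transcription factors STAT3, STAT5A and STAT5B, and the feedback inhibitors CISH, SOCS1, SOCS2 and SOCS3. Its members were picked by gene symbol as known parts of the pathway, and all 10 were present among the 26255 genes listed for every sample. 22RV1 is an established human line of castration-resistant prostate cancer (CRPC), kept here in RPMI 1640 with 10% FBS. In 3 samples the cells received 10 nM BCT over 24 h, and in another 3 they received the solvent DMSO over the same time. All samples came from 1 cell line at 1 dose and 1 time. Separate cultures are not stated in the labels, so each p-value measures the spread between these samples, which may be technical.

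In JAK-STAT signaling, a cytokine of the interleukin-6 (IL-6) type brings together receptor chains that carry Janus kinases (JAKs). The activated kinases phosphorylate STAT proteins, which pair, enter the nucleus and bind DNA, and STAT3 and STAT5 then switch on, among other genes, those encoding SOCS proteins. SOCS1, SOCS3 and CISH in turn block the kinase or the receptor, closing a negative feedback loop. In prostate cancer cells, IL-6 and STAT3 signaling has been linked to growth when androgen is low.

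The values were FPKM, fragments per kilobase of transcript scaled to the mapped fragments of the sample, so levels could be compared between genes per length. Fold changes were differences of log2(FPKM + 0.1), BCT minus DMSO, a scale that understates the change of low genes. A gene was called when it moved by more than 0.85 on this scale (1.80-fold) with an adjusted p under 0.05 in limma, and "rose" and "fell" are used for called genes. A filter on a mean of at least 1 FPKM left 12729 genes, of which 31.6% were called, 13.9% higher and 17.8% lower. Sums of FPKM ran from 1169649 to 1572321 in DMSO and from 757534 to 799838 in BCT. One small RNA gene, MIR6087, held 43.5 to 55.3% of the sum in DMSO and 31.7 to 32.5% in BCT. As alternatives, the values were rescaled to equal sums with and without it, while its part in the deposited values was not tested. These rescalings raised the median log2 fold change over all genes tested from -0.04 to 0.72 and 0.34. Calls gained or lost under them therefore include this common shift. Relative depth, read from the steps between low values, was 0.877 to 1 in DMSO and 1.06 to 1.14 in BCT. All 10 prostate luminal markers had a mean of at least 1 FPKM, while 7 of 8 leukocyte markers and 6 of 7 markers of fibroblasts and endothelium did not. The summed level of the leukocyte list was 2.95 to 3.83 FPKM in DMSO and 6.20 to 9.34 FPKM in BCT, that of the fibroblast and endothelial list 2.53 to 2.70 and 5.87 to 7.01 FPKM, and their part in the results was not tested. In bulk RNA, fewer cells of a type and less RNA per cell cannot be told apart.

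Of the 10 genes, 7 passed the filter, and SOCS1, SOCS2 and SOCS3 did not. Among the 7, IL6R and JAK1 rose and none fell, and in limma 5 had an unadjusted p under 0.05 in the higher direction and 1 in the lower, beside 39.7% and 43.3% of all genes tested. At any fold, 4 were higher and 1 was lower with an adjusted p under 0.05, as were 39.3% and 42.8% of all genes tested (82.1% in all). Their median log2 fold change was 0.33, beside -0.04 over all genes tested. The BCT samples lay wholly above the DMSO samples for 4 of the 7 tested genes and wholly below for 1, and the groups overlapped for 2. SOCS1, SOCS2 and SOCS3, which did not pass the filter, also had every BCT sample above every DMSO sample. Separation of that kind was common in these data, since 85.3% of all genes tested had groups that did not overlap, 41.0% with BCT higher and 44.3% with BCT lower. These shares cover genes that passed the filter, and none was computed for genes below it, such as SOCS1, SOCS2 and SOCS3.

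**Figure D1:**
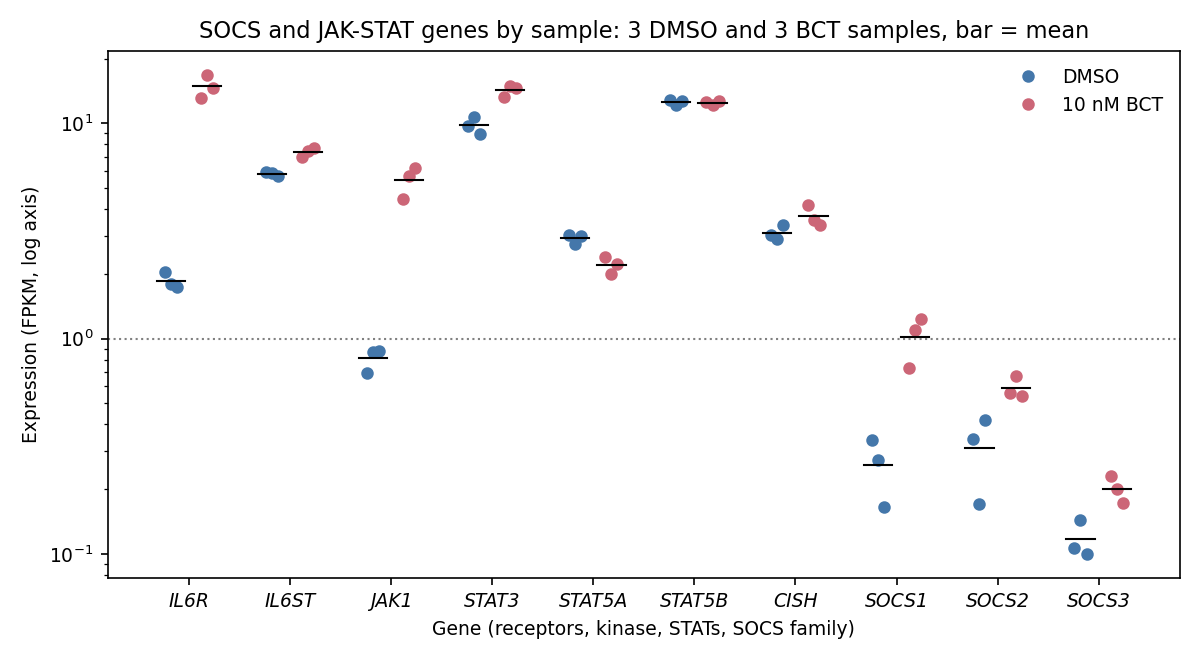
FPKM (log axis) of the 10 SOCS and JAK-STAT genes in each of the 3 DMSO and 3 BCT samples, 1 point per sample, with a bar at each group's mean and a dotted line at the filter of 1 FPKM. IL6R and JAK1 show the widest gaps between the groups, and the points of STAT5B and of CISH overlap.

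The receptor chain IL6R, which binds IL-6 itself, rose more than any other gene of the set. Its levels in the DMSO samples were 2.05, 1.80 and 1.73 FPKM, and in the BCT samples 13.2, 16.8 and 14.7 FPKM. Every BCT sample was thus far above every DMSO sample. The mean went from 1.86 ± 0.166 to 14.9 ± 1.85 FPKM (SD, n = 3), an 8.01-fold difference. The log2 fold change was 2.93 with a 95% confidence interval of 2.69 to 3.17 (limma, adjusted p = 3.33e-07), and 0.72% of the genes tested had a higher one. In hg19 coordinates, the build of the deposited files, the gene spans chr1:154377669-154441926. IL6R was called under every alternative setting in which it was tested, at 2.47 to 3.68.

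The signaling chain IL6ST (gp130), shared by the receptors of the whole IL-6 family, gave a much smaller difference. It was at 5.96, 5.89 and 5.68 FPKM in DMSO and at 6.965, 7.43 and 7.66 FPKM in BCT. These groups did not overlap, but the change was 1.26-fold and under the fold threshold. The log2 fold change was 0.33 (95% confidence interval 0.18 to 0.47, limma adjusted p = 0.0013), and it was 0.02 (adjusted p = 0.72) after a correction for GC content and transcript length. Rescaling to equal sums gave 1.08, a call. The IL6ST transcript has the lowest GC content of the set, 36.5% against a median of 48.2% over genes tested. On the opposite strand, 797 bases of the IL6ST exons overlap a gene that was not among those listed. The proportion of the chains was read within each sample. For each FPKM of IL6ST there were 0.344, 0.306 and 0.305 FPKM of IL6R in the DMSO samples and 1.89, 2.27 and 1.91 in the BCT samples. The ratio thus moved from 0.318 ± 0.0221 to 2.02 ± 0.212 (SD, n = 3) with no overlap, and the exact two-sided permutation test gave p = 0.1, the smallest that 3 against 3 samples allow.

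JAK1, a kinase that sits on IL6ST and on many other cytokine receptors, rose from a low level. The DMSO samples held 0.69, 0.867 and 0.875 FPKM, and the BCT samples 4.465, 5.67 and 6.205 FPKM. All 3 BCT samples were several times higher than any DMSO sample. The mean went from 0.811 ± 0.105 to 5.45 ± 0.892 FPKM (SD, n = 3), or 6.72-fold, with a log2 fold change of 2.60 (95% confidence interval 2.25 to 2.95, limma adjusted p = 1.55e-06). Only 1.03% of the genes tested had a higher fold change. JAK1 passed the filter only through its level in BCT, since its DMSO mean was under 1 FPKM, and a filter at 5 FPKM removed it. Under the other settings it was called each time, at 1.82 to 3.32. The files list JAK1 on an interval, chr1:65210778-65432187 (hg19), that they share with the neighbouring gene RAVER2. The exons of these neighbours share 10 bases, and RAVER2 went the other way, from 6.09 to 6.49 FPKM in DMSO to 4.21 to 5.19 FPKM in BCT. Such shared intervals were frequent, applying to 33.9% of all genes listed.

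The mix of Janus kinase transcripts shifted accordingly. JAK1 made up 3.42, 4.06 and 4.07% of the summed FPKM of the 4 JAK genes in DMSO and 19.7, 24.9 and 27.1% in BCT. TYK2, a partner of the interferon receptors, held 78.8, 79.0 and 79.2% in DMSO and 56.8, 52.7 and 49.1% in BCT. JAK2, which serves the growth hormone receptor among others, held 13.1 to 13.8% in DMSO and 21.5 to 23.0% in BCT. None of these groups overlapped, and each exact permutation test gave p = 0.1, the smallest possible. The sum of the 4 genes differed less, with 20.2, 21.3 and 21.5 FPKM in DMSO and 22.6, 22.7 and 22.9 FPKM in BCT. JAK2 and TYK2 themselves had log2 fold changes of 0.82 and -0.46 and were not called. They fall outside the naming rule and are given here because the share of JAK1 is a share of these genes.

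**Figure D2:**
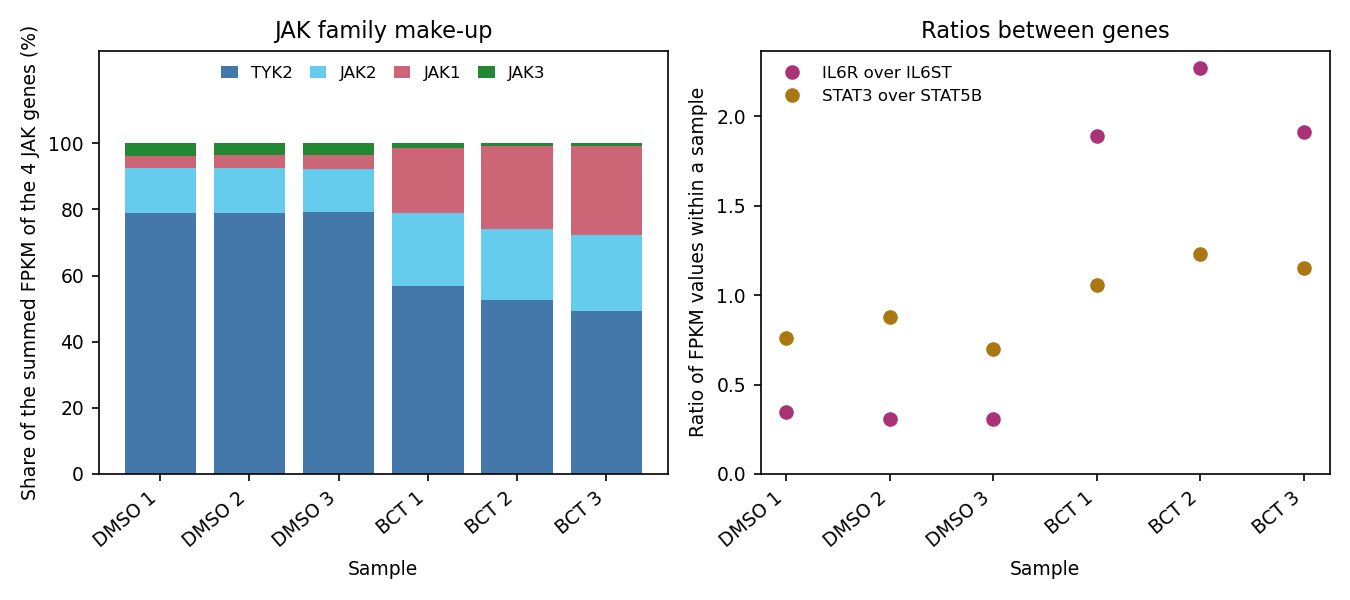
Left, the share in percent of each of the 4 JAK genes in their summed FPKM, 1 stacked bar per sample. Right, the ratios IL6R over IL6ST and STAT3 over STAT5B, 1 point per sample, where the BCT samples (1.89 to 2.27 and 1.05 to 1.23) lie above all DMSO samples.

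The STAT transcription factors of the set behaved unalike. STAT3, the main effector below IL6ST, was at 9.73, 10.8 and 8.89 FPKM in DMSO and at 13.3, 15.0 and 14.6 FPKM in BCT. Its groups were separate at 1.46-fold, and the log2 fold change of 0.54 (95% confidence interval 0.36 to 0.73, limma adjusted p = 0.000283) stayed under the fold threshold. Among the alternatives, STAT3 was called only under the rescalings to equal sums, at 1.31 with MIR6087 in the sums and 0.93 without it. STAT5A, a mediator of prolactin and growth hormone signals, lay lower with BCT. Its levels were 3.04, 2.75 and 3.01 FPKM in DMSO and 2.40, 1.997 and 2.235 FPKM in BCT, again without overlap. Its log2 fold change was -0.40 (95% confidence interval -0.63 to -0.16, adjusted p = 0.0063), not called, and it was -0.16 (adjusted p = 0.126) after the GC content and length correction and 0.34 after rescaling to equal sums. STAT5B, the close paralog of STAT5A, was the flattest gene of the set. It measured 12.8, 12.2 and 12.7 FPKM in DMSO and 12.6, 12.1 and 12.7 FPKM in BCT. The groups lay on top of each other, at a log2 fold change of -0.01 with a 95% confidence interval of -0.13 to 0.11 (adjusted p = 0.85).

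These 3 STAT genes are neighbours within 189.3 kb of chromosome 17, with STAT5B at chr17:40351195-40428424, STAT5A at chr17:40439565-40463960 and STAT3 at chr17:40465343-40540513 (hg19). STAT5A and STAT5B share 371 stretches of 100 bases, 7.32% of those in STAT5A and 5.58% of those in STAT5B, and 415 bases of their exons overlap on opposite strands. Reads from there could have been assigned to either gene. STAT5A was 19.2, 18.3 and 19.2% of the pair in DMSO and 16.0, 14.1 and 15.0% in BCT, a lower share in all 3 BCT samples. The STAT3 level relative to STAT5B was 0.759, 0.880 and 0.702 in DMSO and 1.05, 1.23 and 1.15 in BCT. STAT5B was thus the more abundant of this pair in every DMSO sample and STAT3 in every BCT sample.

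CISH, which competes with STAT5 for docking sites on receptors and is a classic STAT5 target, was the only SOCS family gene of the set to pass the filter. Its promoter window is shown because, of the 9 genes of the set with a window, it alone held the STAT consensus within a window. The consensus searched was TTCNNNGAA, whose fixed letters read the same on both strands, in windows from 250 bases before to 50 bases after each transcription start. Windows came from RefSeq on GRCh38.p14, a later build than that of the expression files, and the 10 genes except SOCS2 had 14 windows in all. They were not matched to the gene starts listed with the expression values, and sequence outside them was not searched. A gene without a match here, such as SOCS3, may therefore carry one elsewhere. CISH (chr3:50611725-50612024, minus strand) held 4 matches, in capitals, and the window of IL6R (chr1:154405093-154405392, plus strand), the gene with the largest change, is printed for comparison and held none. Both are written 5′ to 3′ along the gene.
CISH: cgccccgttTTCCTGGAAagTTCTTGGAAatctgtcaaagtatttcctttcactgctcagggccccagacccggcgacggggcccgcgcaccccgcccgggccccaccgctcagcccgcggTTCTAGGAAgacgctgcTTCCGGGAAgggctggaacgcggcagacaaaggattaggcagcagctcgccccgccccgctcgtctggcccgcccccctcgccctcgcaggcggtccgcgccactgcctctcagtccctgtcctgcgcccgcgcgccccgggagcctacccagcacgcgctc
IL6R: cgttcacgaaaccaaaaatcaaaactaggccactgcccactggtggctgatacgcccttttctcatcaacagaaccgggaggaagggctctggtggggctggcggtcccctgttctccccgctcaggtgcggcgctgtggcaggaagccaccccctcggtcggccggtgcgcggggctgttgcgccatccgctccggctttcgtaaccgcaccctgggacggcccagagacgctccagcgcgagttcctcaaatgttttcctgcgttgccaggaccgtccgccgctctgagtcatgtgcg
The 4 CISH matches were TTCCTGGAA at -241 to -233, TTCTTGGAA at -230 to -222, TTCTAGGAA at -129 to -121 and TTCCGGGAA at -112 to -104, counted from the transcription start. At least 1 match occurred in 7.66% of the 35116 RefSeq windows, and at least 4 occurred in 7 windows. A match is a run of letters and not a measured binding site.

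The level of CISH moved little. It was 3.035, 2.89 and 3.39 FPKM in DMSO and 4.196, 3.565 and 3.38 FPKM in BCT. The groups touched, since the lowest BCT sample was just under the highest DMSO sample. The log2 fold change was 0.25 (95% confidence interval 0.0047 to 0.49, limma adjusted p = 0.056) and missed the threshold. It was 0.46 (adjusted p = 0.001) after the GC content and length correction and 0.995, a call, after rescaling to equal sums. Relative to the median of all genes tested, CISH was at 0.29 as deposited and at 0.28 after that rescaling. On the opposite strand, 218 bases of the CISH exons overlap MAPKAPK3, at 12.6 to 14.1 FPKM across all samples. In a library that does not mark strand, reads from there could have been assigned to either gene.

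The 3 remaining feedback inhibitors were too low to be tested under the filter. SOCS1, which inhibits JAK kinases directly, was at 0.337, 0.272 and 0.165 FPKM in DMSO and at 0.73, 1.09 and 1.235 FPKM in BCT. The mean went from 0.258 ± 0.0869 to 1.02 ± 0.260 FPKM (SD, n = 3), 3.95-fold, and the groups were separate. When the filter was dropped and 21543 genes were tested, SOCS1 rose, with a log2 fold change of 1.65 (95% confidence interval 1.04 to 2.25, limma adjusted p = 0.000975). In that fit 25.2% of all genes were called, and 12.3% of all genes were called higher. Of the genes with a mean under 1 FPKM, 10.2% were called higher and 5.83% lower.

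SOCS2, an inhibitor of growth hormone signaling, was at 0.342, 0.17 and 0.421 FPKM in DMSO and at 0.557, 0.673 and 0.539 FPKM in BCT. SOCS3, which binds IL6ST and the JAK beside it, was lowest of all, at 0.107, 0.143 and 0.1 FPKM in DMSO and 0.231, 0.2 and 0.172 FPKM in BCT. In both genes every BCT sample exceeded every DMSO sample, but at levels of a fraction of 1 FPKM. Without the filter, the log2 fold changes were 0.79 for SOCS2 (95% confidence interval 0.19 to 1.40, adjusted p = 0.0298) and 0.47 for SOCS3 (0.15 to 0.80, adjusted p = 0.0201), and neither passed the fold threshold. An adjusted p under 0.05 was reached by 60.8% of all genes in that fit. SOCS2 shares its listed interval with the antisense gene SOCS2-AS1, and in a library whose kit does not mark strand the reads of the overlapping 277 bases cannot be told apart. SOCS2-AS1 was also higher with BCT, at 0.064, 0 and 0.145 FPKM in DMSO and 0.24, 0.28 and 0.225 FPKM in BCT. The part of SOCS2-AS1 in the SOCS2 difference was not tested.

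Ordered by mean level in DMSO, the set ran from STAT5B over STAT3, IL6ST, CISH, STAT5A, IL6R, JAK1, SOCS2 and SOCS1 to SOCS3, spanning 107.8-fold. In this order the sample ranges of CISH and STAT5A overlapped, as did those of SOCS2 and SOCS1. With BCT the order began with IL6R and STAT3, whose ranges overlapped, followed by STAT5B, IL6ST, JAK1, CISH, STAT5A, SOCS1, SOCS2 and SOCS3, over 74.1-fold. IL6R had moved from the sixth place to the first, beside STAT3. BCT replicate 1 was the BCT sample nearest to DMSO for 7 of the 10 genes and for 87.5% of all called genes. The 10 genes include some that were not called or not tested, so these shares cover unlike sets. The part of BCT replicate 1 in the result was not tested beyond leaving it out, under which IL6R and JAK1 were called as before.

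**Figure D3:**
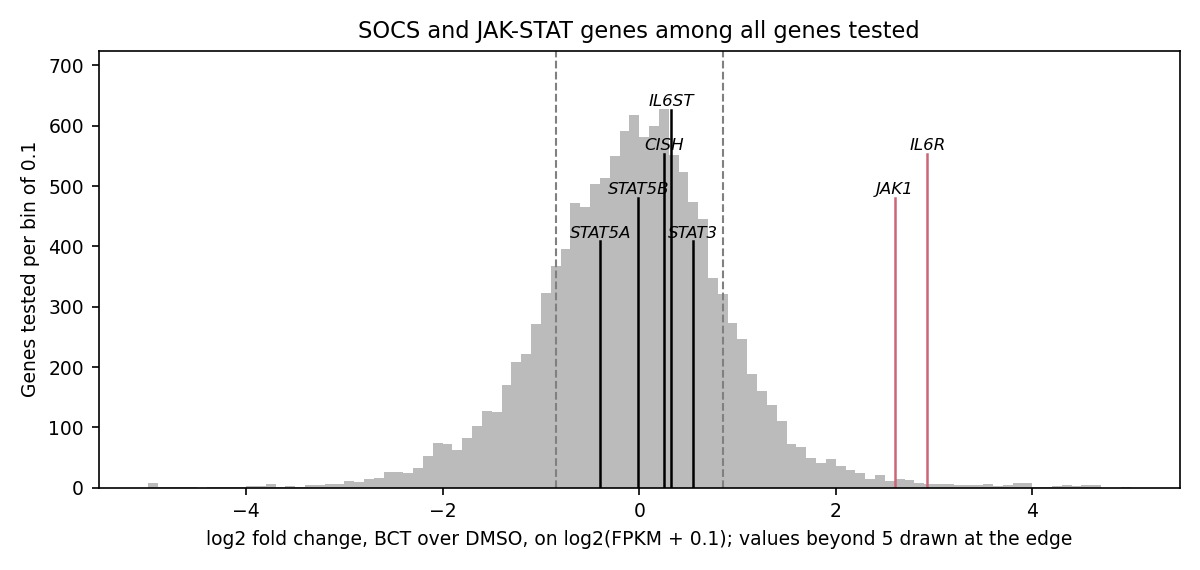
Number of genes tested per bin of log2 fold change on log2(FPKM + 0.1), BCT minus DMSO, with the 7 tested genes of the set drawn as labelled lines whose heights carry no value and dashed lines at the threshold of 0.85. IL6R (2.93) and JAK1 (2.60) lie in the right tail, and the other lines lie between -0.40 and 0.54.

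Further genes of the pathway were taken from 6 lists that together held 92 entries, of which 60 passed the filter. Of these 60, 12 were called higher and 9 lower, and the median log2 fold change was 0.11 (beside 13.9%, 17.8% and -0.04 over all genes tested).

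The other SOCS genes, SOCS4 to SOCS7, were all tested, and in limma 2 rose and 0 fell, with 0 at an unadjusted p under 0.05 in the lower direction. Over all genes tested, 13.9% rose, 17.8% fell and 43.3% had such a p in the lower direction. SOCS6 went from 3.60 ± 0.225 to 7.53 ± 0.533 FPKM (SD, n = 3), a log2 fold change of 1.04 (limma adjusted p = 5.43e-06). SOCS4 went from 7.74 ± 0.727 to 14.1 ± 0.753 FPKM at 0.86 (adjusted p = 1.44e-05), a call close to the threshold that was lost without DMSO replicate 1, without DMSO replicate 3 without BCT replicate 3 and with a pseudocount of 1. Both calls were lost after the GC content and length correction, at 0.85 and 0.60. The summed level of the 8 SOCS family genes was 28.5, 30.1 and 28.6 FPKM in DMSO and 40.5, 40.4 and 42.9 FPKM in BCT. SOCS1, SOCS2 and SOCS3 together made up 1.94 to 2.76% of that sum in DMSO and 3.75 to 4.86% in BCT.

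Among the other JAK and STAT genes, 7 of 8 were tested. Of these, 2 rose, 1 fell and the median was -0.29, beside 13.9%, 17.8% and -0.04 over all genes tested. STAT2 and IRF9, both parts of the factor that answers type I interferon, moved in opposite directions. STAT2 fell from 10.1 ± 0.154 to 4.50 ± 0.515 FPKM (SD, n = 3; log2 fold change -1.15, limma adjusted p = 4.27e-06), a call lost under both rescalings to equal sums, at -0.40 with MIR6087 in the sums and -0.77 without it. IRF9 rose from 3.96 ± 0.138 to 7.26 ± 0.277 FPKM (0.86, adjusted p = 5.31e-06), and this call was lost without DMSO replicate 1, DMSO replicate 3 or BCT replicate 3 and with a pseudocount of 1. STAT4, the effector of interleukin-12, rose by 1.15 (adjusted p = 8.51e-05) passed the filter only through its level in BCT, and lost its call with a pseudocount of 1.

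The IL-6 family of cytokines held 9 genes, of which 3 were tested. LIF, which signals through IL6ST and its own receptor chain, was at 0.585, 0.586 and 0.682 FPKM in DMSO and at 4.08, 5.26 and 4.71 FPKM in BCT. It rose by 2.73 (limma adjusted p = 9.2e-07), although it passed the filter only through BCT. CLCF1, a ligand of the ciliary neurotrophic factor receptor, rose from 1.36 ± 0.084 to 8.64 ± 1.29 FPKM (SD, n = 3) at 2.58. CNTFR, a chain of that receptor, fell from 10.8 ± 1.04 to 3.63 ± 0.546 FPKM at -1.56, a call lost at -0.80 after rescaling to equal sums. IL6 was listed at 0 in all DMSO samples and in BCT replicate 1, and at 0.11 and 0.044 FPKM in BCT replicates 2 and 3. The IL6 transcript was thus near 0 in both groups, and the IL-6 protein that binds IL6R was not measured.

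Of 27 other cytokine receptor genes, 15 were tested. In limma 3 fell and 0 rose, with a median of -0.26, beside 17.8%, 13.9% and -0.04 over all genes tested. At an unadjusted p under 0.05, 5 were higher and 8 lower, beside 39.7% and 43.3% of all genes tested. Besides CNTFR, IFNAR2, a chain of the type I interferon receptor, fell from 12.4 ± 0.355 to 4.08 ± 0.780 FPKM (SD, n = 3; log2 fold change -1.59, adjusted p = 4.78e-06). GHR, the growth hormone receptor, fell from 4.68 ± 0.0528 to 1.94 ± 0.218 FPKM (-1.23, adjusted p = 6.6e-06). After rescaling to equal sums both calls were lost, at -0.83 for IFNAR2 and -0.49 for GHR. No call was made among 13 tested genes of the other brakes on the pathway (phosphatases, PIAS proteins, ubiquitin ligases), where 8 had an unadjusted p under 0.05 in the higher and 5 in the lower direction, a criterion that 82.9% of all genes tested met.

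STAT3 and STAT5 target genes numbered 30, of which 18 were tested. Of these, 6 rose and 4 fell, with a median of 0.12, beside 13.9%, 17.8% and -0.04 over all genes tested. FOS, an immediate early transcription factor, rose from 3.43 to 73.0 ± 19.8 FPKM (log2 fold change 4.34, limma adjusted p = 4.29e-07). CEBPD, a transcription factor of the acute phase, rose by 1.60, VEGFA, the angiogenic growth factor, by 1.498, and BCL6, a transcriptional repressor, by 1.14. PIM1, a survival kinase, fell from 8.79 to 2.81 FPKM at -1.61, and A2M, a protease inhibitor, fell at -1.56, a call lost at -0.83 after rescaling to equal sums. Genes of this list therefore moved in both directions in the same samples.

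**Figure D4:**
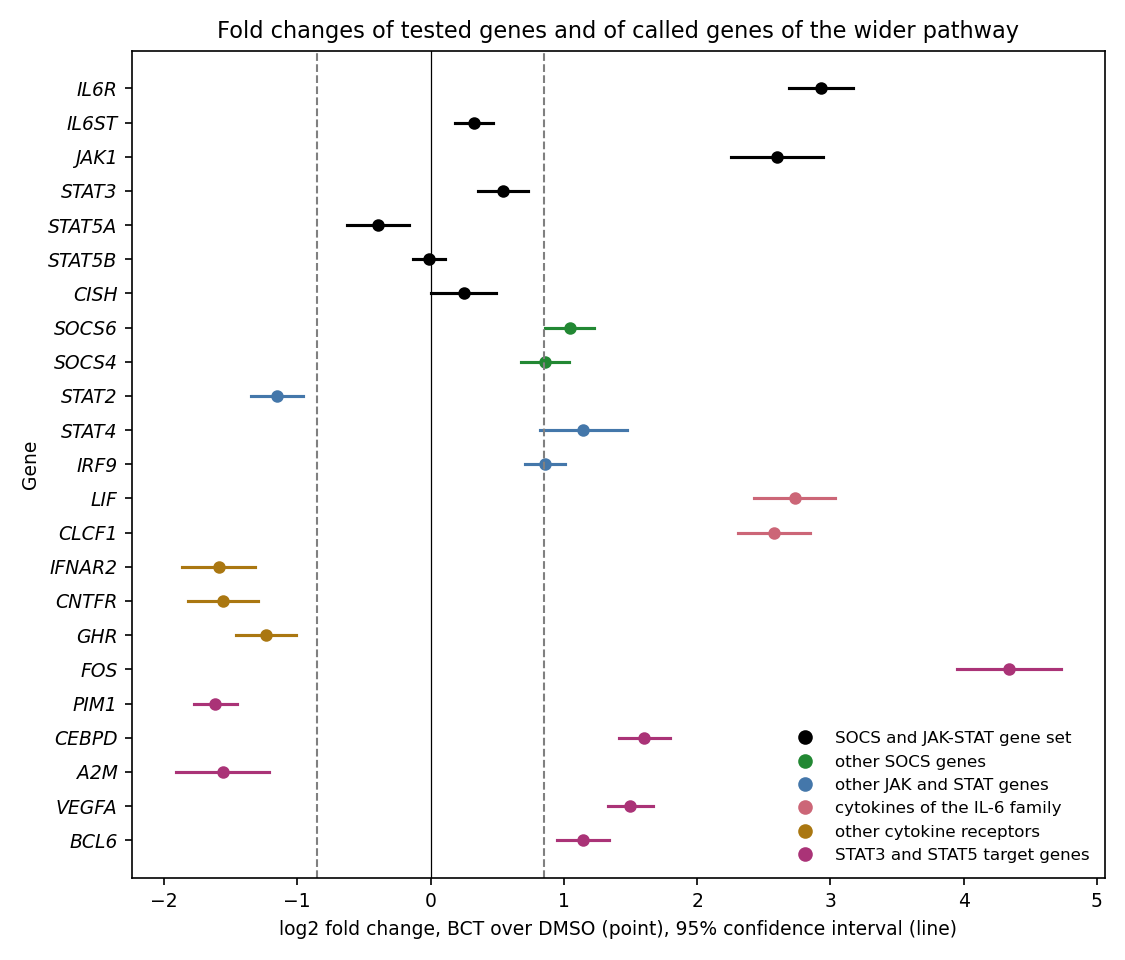
Log2 fold changes of log2(FPKM + 0.1), BCT minus DMSO, of the 7 tested genes of the set and of the called genes named from the wider lists, as points with 95% confidence intervals (limma, 3 samples per group) and dashed lines at 0.85 to either side. IL6R (2.93), JAK1 (2.60), LIF (2.73) and CLCF1 (2.58) lie far to the right with FOS, and SOCS4 and IRF9 (both 0.86) lie on the line.

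**Figure D5:**
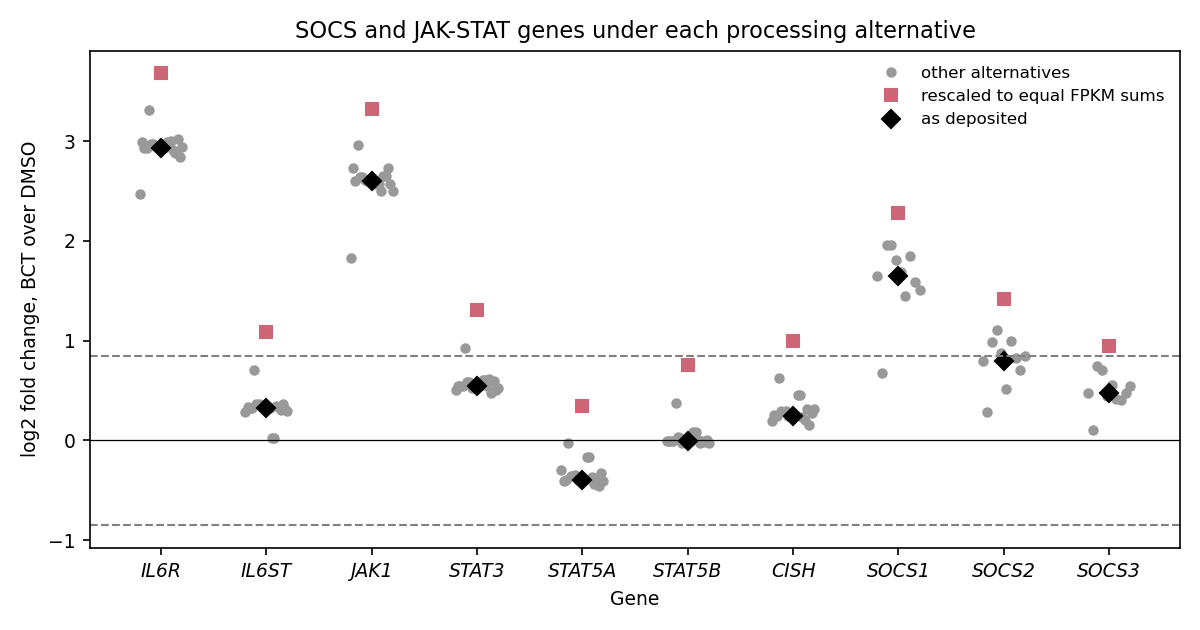
Log2 fold change, BCT over DMSO, of each of the 10 genes under each processing alternative, with the values as deposited as diamonds, those rescaled to equal FPKM sums as squares, the other alternatives as grey points and dashed lines at 0.85. IL6R (2.47 to 3.68) and JAK1 (1.82 to 3.32) lie beyond the threshold under each setting that tested them, and STAT5B falls on both sides of 0.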

How the data were processed

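RNA-seq was done on 3 DMSO and 3 BCT samples of 22RV1 cells with a library kit that does not mark strand. The authors trimmed reads with Trimmomatic 0.38, aligned them to hg19 with HISAT2 and deposited 1 table of FPKM values per sample. HTSeq is named in the submitters' processing notes and StringTie in the study's methods, and which tool wrote the deposited FPKM is not given in the sources used here. The deposited files hold no read counts, so no counting intervals are given.

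Here, log2(FPKM + 0.1) was fitted with limma 3.58.1 (trend, R 4.3.3) over genes averaging 1 FPKM or more, and p-values were adjusted by the Benjamini-Hochberg method over all of them. Calls needed an absolute log2 fold change over 0.85 and an adjusted p under 0.05. The fit was also run on simulated data, where 200 of 12729 genes had been given a shift of 1.5 log2 units. It recovered 191 of them, with 1 false call among the 12529 others. In the real data 31.6% of the genes tested were called, far more than were shifted there. The simulation therefore gives no error rate for the real calls. The members and lists were chosen with earlier results of these data known. Genes named were all 10 members and, from each other list, at most 6 called genes with the largest change. Some genes of the lists are not reported here. JAK2, TYK2, RAVER2, MAPKAPK3, IL6, SOCS2-AS1 and MIR6087 were named outside that rule, after their values were seen, and so were the untested genes of the other observations. The GC content and transcript length correction (loess span 0.5) was added after seeing the data, and lengths and GC content were matched for 97.6% of genes tested. Other alternatives changed the pseudocount, the filter, the scaling, the threshold and the samples. Promoter windows came from RefSeq (GRCh38.p14).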

Additional observations from a re-analysis of the deposited data

How the results depend on the processing

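Of 144 alternative values for the 7 tested genes of the set, 135 kept their sign and 140 their call or lack of one. Settings that changed only the variance model, the FDR threshold, the filter or the replicate block left each fold change as it was. The sign could not change there, so the count of kept signs overstates what was tried. Rescaling to equal FPKM sums raised the median over the genes tested from -0.04 to 0.72, or to 0.34 without MIR6087, and lowered the share of calls that were lower from 56.2% to 10.6%, or to 26.4% without it. Equal sums gave 2.28 for SOCS1, 1.42 for SOCS2, 0.94 for SOCS3, 0.995 for CISH, 1.31 for STAT3, 0.34 for STAT5A, 0.75 for STAT5B and 1.08 for IL6ST. Without MIR6087 in the sums, the values were 0.71 for SOCS3, 0.93 for STAT3 and 0.37 for STAT5B. A pseudocount of 1 gave 0.68 for SOCS1, 0.28 for SOCS2 and 0.10 for SOCS3, and a pseudocount of 0.01 gave 0.74 for SOCS3. STAT5B turned positive at 0.033 (upper quartile), 0.027 (median of ratios) and 0.084 (GC content and length), and leaving out a sample gave -0.0297 to 0.0090.

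Among the 10 genes, 1 was called higher with a filter at 5 FPKM and 5 with equal sums, against 2. Over all genes, 668 were lower and 5614 higher with equal sums, 1208 and 3370 without MIR6087, against 2263 and 1764. Higher calls numbered 2657 with no filter and 1150 with a filter at 5 FPKM. The other SOCS genes gave 1 higher call with a pseudocount of 1, 0 after the GC correction and 1 to 2 with a sample left out. Other JAK and STAT genes gave 2 lower with no filter and 0 under both sum scalings, and 0 higher with a pseudocount of 1, 1 at 5 FPKM and 1 to 2 with a sample left out. Cytokines gave 2 lower with no filter, and 0 lower and 0 higher at 5 FPKM. Receptors gave 0 lower with equal sums, and 5 higher with equal sums, 2 without MIR6087, 2 by upper quartile, 1 each by median of ratios, GC correction and no filter, and 0 to 2 with a sample left out. The brakes gave 1 lower with no filter, 0 to 1 with a sample left out, and 8 and 4 higher under the sum scalings. Targets gave 1 lower with equal sums, 2 without MIR6087 and 2 after the GC correction.

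Replicate numbers are shared between the groups. The deviations of same-numbered samples correlated at 0.116, 0.0328 and 0.0342, and those of samples with different numbers at -0.115 to 0.074. With 3 samples per group these values cannot settle whether the samples were paired, and the labels do not say. A fit with a replicate block called 2266 genes lower and 1767 higher, with 2 of the 10 genes higher and 0 lower. With the block and the GC correction, STAT5B was at 0.084. Depth cannot be given in reads, and the levels of SOCS1, SOCS2 and SOCS3 in DMSO were too low for the filter.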

Other observations

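Among the wider lists, some genes with a mean under 1 FPKM changed in the fit without a filter, in which 10.2% of the genes at such levels were called higher and 5.83% lower. JAK3, the kinase of the common gamma chain of lymphocyte receptors, was at 0.775 FPKM in DMSO and 0.23 FPKM in BCT on average, and fell by 1.43 on the log2 scale (limma adjusted p = 0.000438). IGF1, a growth factor gene known as a STAT5 target, was at 1.74 FPKM in DMSO and 0.166 FPKM in BCT, and fell by 2.81 (adjusted p = 1.68e-05). IL11, another cytokine that signals through IL6ST, rose by 0.996 (adjusted p = 0.000586), and CTF1, a further one, fell by 1.25 (adjusted p = 0.000862). These 4 genes were chosen after their values were seen.

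The transcripts of the set also differed in the part that follows the coding region. The annotated 3′ UTR of IL6ST was longest, at 5987 bases with 23 copies of ATTTA, a motif found in unstable transcripts. Over genes tested the medians were 1438.5 bases and 2 copies, and the copies were not scaled to length. IL6R had 6 copies in 4070 bases and JAK1 2 copies in 1328 bases. SOCS1 and STAT5A had none, in 426 and 1274 bases. These counts are a description, and no test was made.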
